A study of Drosophila melanogaster with 2 samples.

Results

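The 8 genes described here carry or answer the epidermal growth factor receptor (EGFR) signal in Drosophila melanogaster. They are the receptor gene Egfr, the ligand genes spi and vn, the ligand-processing gene rho, the inhibitor genes aos and sty, and pnt and aop, which encode transcription factors of the ETS family. They were taken by symbol from 13945 protein-coding genes of the Ensembl annotation, and every deposited region with its summit in a gene or within 10 kb of it was assigned to that gene. The question was where the general transcription cofactor NC2beta was found at these genes, at their own promoters or elsewhere. Its binding was mapped by chromatin immunoprecipitation with sequencing (ChIP-seq) in whole embryos aged 0 to 24 h, males and females together, from a transgenic line with stable expression of NC2beta that carries eGFP at its C-terminus. An antibody against GFP was used, and chromatin was sonicated to 200 to 800 bp. There was 1 group with 2 samples, labelled as biological replicates 1 and 3, and no second genotype, time or treatment, so that no test between groups could be made. All cell types of the embryo, and all stages within the 0 to 24 h, were mixed in each sample. No label gives how much fusion protein the line makes beside the untagged protein.

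In the EGFR pathway, Spi, a ligand of the TGF-alpha kind, is made as a membrane-bound precursor and is released after cleavage by the rhomboid protease that rho encodes, whereas Vn, a neuregulin-like ligand, is secreted without it. The receptor acts through Ras, Raf and the MAP kinase Rolled, which relieves repression by Aop (Yan) and activates Pnt. Aos, a secreted protein that captures Spi, and Sty (Sprouty), which acts inside the cell, restrain the signal, and in many embryonic tissues aos, sty, rho and pnt are themselves target genes of it. NC2, made of an alpha and a beta subunit, binds the TATA-binding protein on DNA, where it can repress or activate transcription from the core promoter.

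The sequences below are the DNA under the main regions, given because in 6 of the 8 genes, leaving out the promoters of neighbours, the highest region lay in an intron or in intergenic DNA, over 1000 bp from every protein-coding start. Windows of 5 of these genes are printed, and that of spi, whose highest region was at an internal start, for comparison. Each window spans 100 bp on both sides of a summit of the pooled list, is read from the plus strand of the Release 6 reference genome (build dm6), and has none of its bases in an annotated exon. Capitals mark exact matches on either strand to 5 short words, which are TATAAA (the TATA box), GAGAG (bound by GAGA factor), TATCGATA (the DRE), CAGGTAG (bound by Zelda) and CCGGAA (the core of many ETS sites). The windows of spi and sty held none of these.
aos intron, chr3L:16480453-16480653: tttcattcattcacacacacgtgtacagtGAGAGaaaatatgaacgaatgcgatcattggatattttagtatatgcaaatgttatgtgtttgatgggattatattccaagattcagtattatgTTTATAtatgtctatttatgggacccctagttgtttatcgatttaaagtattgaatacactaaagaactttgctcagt
spi intron, upstream of an internal start, chr2L:19575664-19575864: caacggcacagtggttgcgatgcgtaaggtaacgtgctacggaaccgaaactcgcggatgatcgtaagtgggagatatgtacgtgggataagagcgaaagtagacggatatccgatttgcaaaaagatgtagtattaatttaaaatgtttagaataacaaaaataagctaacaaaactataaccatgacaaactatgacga
sty, intergenic, beyond its 3′ end, chr3L:3394940-3395140: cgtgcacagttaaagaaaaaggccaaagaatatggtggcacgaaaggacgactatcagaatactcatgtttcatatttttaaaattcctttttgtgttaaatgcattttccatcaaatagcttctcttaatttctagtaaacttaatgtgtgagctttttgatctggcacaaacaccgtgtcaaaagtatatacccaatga
pnt intron, chr3R:23326408-23326608: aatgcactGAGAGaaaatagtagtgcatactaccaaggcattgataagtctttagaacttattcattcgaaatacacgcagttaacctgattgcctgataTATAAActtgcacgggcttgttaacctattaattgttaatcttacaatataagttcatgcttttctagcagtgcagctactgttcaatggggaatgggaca
vn intron, chr3L:5824145-5824345: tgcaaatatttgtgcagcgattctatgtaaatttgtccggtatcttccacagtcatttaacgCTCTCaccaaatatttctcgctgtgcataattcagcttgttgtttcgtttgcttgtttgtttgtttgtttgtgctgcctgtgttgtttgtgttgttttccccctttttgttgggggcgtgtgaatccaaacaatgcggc
aop intron, highest region, chr2L:2163553-2163753: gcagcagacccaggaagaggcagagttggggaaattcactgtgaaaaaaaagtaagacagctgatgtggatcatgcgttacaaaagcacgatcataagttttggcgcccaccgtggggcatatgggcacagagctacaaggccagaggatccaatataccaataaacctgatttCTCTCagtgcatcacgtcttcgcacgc

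The core promoter of rho is shown as the 100 bases before its start and the first 15 transcribed bases, on the plus strand, which is also the strand of the gene. Among 15 annotated transcription start sites (TSSs) of the 8 genes, this was the only one with TATAAA at the position of a TATA box, and capitals mark it and the TCAGT of an initiator.
rho promoter, chr3L:1463711-1463825: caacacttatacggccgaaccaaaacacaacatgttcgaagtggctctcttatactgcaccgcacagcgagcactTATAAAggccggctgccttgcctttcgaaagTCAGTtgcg

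The data are lists of regions, not reads. The authors' optimal set, chosen by irreproducible discovery rate from both replicates, held 3897 regions, which were the 3897 highest of 30000 regions called on the pooled replicates, whose heights ran from 74.1 to 1496 (median 112). A height is the authors' own signal value for a region, of which no source used here states the unit, and is used only to describe and rank regions within a list. The numbers of reads behind the lists are unknown. For each pooled region, the highest region within 250 bp in a replicate's own list of 30000 gave that replicate's height, and division by the replicate's median over the optimal regions (70.6 in replicate 1 and 47.1 in replicate 3) gave a relative height, for which 1 is a middling optimal region.

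The windows of the 8 genes covered 359.691 kb and held 31 optimal regions and 191 pooled regions of any height. This is 8.62 optimal regions per 100 kb, against 2.91 over all chromosome arms, and 53.1 against 22.4 for pooled regions. The windows were drawn around genes, whereas the arms were taken whole, and the density in windows of other genes was not counted. Of the 31 summits, 3 lay within 250 bp of a TSS of the gene itself, and 8 lay that close to the TSS of another protein-coding gene. Another 6 lay at more than 250 and up to 1000 bp from a TSS, in each case one of the same 8 genes, and 14 lay farther than 1000 bp from every protein-coding TSS and are called distal. Of the distal summits, 9 were in introns within the gene they were assigned to and 5 were outside it. By annotation 19 of the 31 summits were intronic, 9 intergenic, 2 in a 5′ untranslated region and 1 in an exon of a non-coding RNA. The median height was 123 for the 31 regions and 173 for the 14 distal ones, against 112 and 114.6 over all optimal and all distal optimal regions of the genome.

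**Figure D1:**
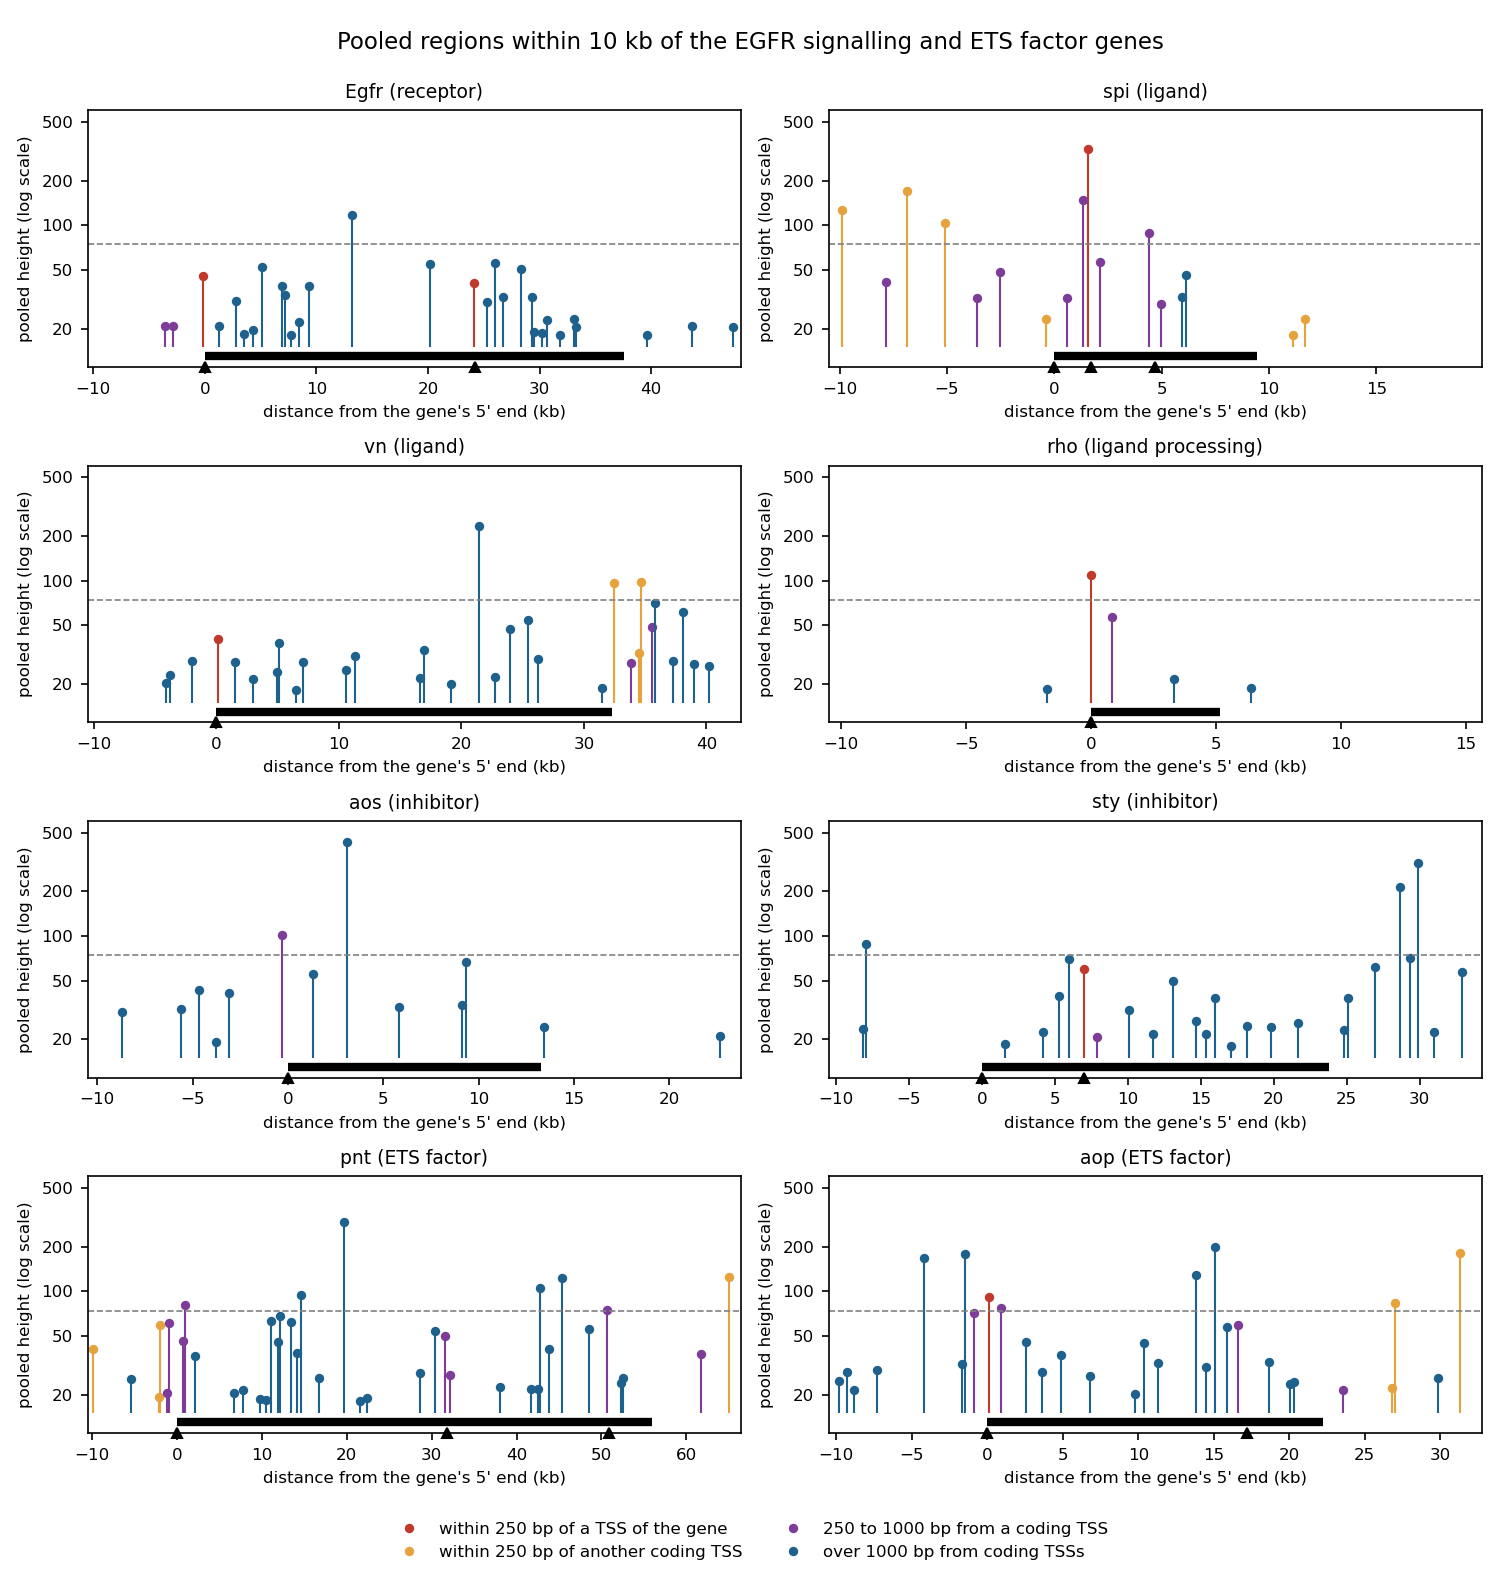
Height of each pooled region (log scale) by distance of its summit from the gene's 5′ end in kb, with 1 panel per gene, the gene drawn as a black bar and its TSSs as triangles, and colours for the 4 position classes. The dashed line is the lowest optimal height, 74.1. The tallest region of aos (433), pnt (293), vn (233) and aop (200) stands inside the gene away from its TSSs, that of sty (310) beyond its 3′ end, and that of spi (325) beside an internal TSS.

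All 8 genes had an optimal summit in the gene or within 10 kb, as did 60.1% of all protein-coding genes. A TSS was bound, meaning that an optimal summit lay within 250 bp of it, in 3 of the 8 (spi, rho and aop), against 17.6% of all genes. When any pooled region counted, 6 of the 8 had one at a TSS, against 48.5%, and aos and pnt had none. A distal optimal summit was found in the window of 6 genes, against 16.4%, and inside the gene itself in 5 (Egfr, vn, aos, pnt and aop), against 4.01%. The Egfr summit lay 1194 bp from a TSS of another gene, so that a limit of 2000 bp would leave it out. Long genes have more room for a summit, and the 8 genes were all at least 5134 bp long. Among the 3413 genes of at least that length, 23.9% had a bound TSS, 69.6% an optimal summit within 10 kb, 27.5% a distal one within 10 kb and 15.3% a distal one inside the gene. This sets only a lower limit on length. The 5 genes with a distal summit inside were 13265 bp (aos) to 55937 bp (pnt) long, and genes of like length were not compared. No test was made on these counts, since the genes were chosen with results of these data known.

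Among the ligand genes, spi carried its highest signal at an internal start. The gene spi (FBgn0005672) lies at 19567900 to 19577315 on the minus strand of arm 2L (dm6) and has 3 annotated TSSs. Its highest region, at 19575627 to 19575951, had its summit in an intron, 177 bp upstream of the second TSS, at 19575587. Its height was 179 in replicate 1 and 143 in replicate 3, and 325 in the pooled list, where it ranked 229 of 30000. The relative heights were 2.54 and 3.03 (2.79 ± 0.343, SD, n = 2). Both replicates therefore placed it well above a middling optimal region, and it was 133rd in height of 1956 optimal regions within 250 bp of a protein-coding TSS. A second optimal region of spi, of pooled height 149, had its summit 200 bp farther upstream, and the intervals overlapped, so that both drew on the same replicate region when the highest was taken. With the nearest region instead, its log2 ratio of replicate 3 over replicate 1 was 0.86, against 0.25 with the highest.

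The other TSSs of spi had less. At the third, 19572610, the nearest optimal summit was 296 bp upstream, with a pooled height of 88.4 and relative heights of 0.834 and 0.728, just outside the 250 bp limit. At the first TSS, 19577315, no pooled region lay within 250 bp, and only replicate 3 listed a region, of height 19.0. The remaining 3 optimal regions of the spi window belonged to the promoters of neighbours, at 68 bp from the TSS of CG10366 (height 171), 22 bp from that of Lar (127) and 66 bp from that of Hakai (103). The region at CG10366 had relative heights of 1.29 and 1.59, and those at Lar and Hakai were lower in replicate 3 (0.847 and 0.777) than in replicate 1 (1.20 and 0.979).

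The protease gene rho (FBgn0004635), at 1463811 to 1468944 on the plus strand of 3L, lies close to the related rhomboid gene stet, and its promoter falls in an intron of Ptp61F. It had 1 optimal region, at 1463588 to 1463987, with the summit 23 bp upstream of its TSS, which is the promoter printed above. The height was 68.4 in replicate 1 and 47.7 in replicate 3 (pooled 109, rank 2060), and the relative heights of 0.969 and 1.01 gave 0.990 ± 0.0304 (SD, n = 2). This was an average optimal region in both replicates. Only 4 lower pooled regions were found elsewhere in the window of 25134 bp, and the first optimal region outside it lay 10502 bp from the gene, nearest to the TSS of stet (height 136).

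The ligand gene vn (FBgn0003984), at 5813338 to 5845664 on the minus strand of 3L, showed the opposite arrangement. At its only TSS, the pooled list had a region of height 40.5 (rank 9229), for which replicate 1 listed 33.3. Replicate 3 listed no region within 250 bp of the TSS, and its highest within 250 bp of the pooled summit was 12.4. In an intron, 21419 bp downstream of the TSS, a narrow region at 5824159 to 5824331 reached 139 in replicate 1 and 88.8 in replicate 3. Its relative heights were 1.96 and 1.88 (1.92 ± 0.0571, SD, n = 2), its pooled height was 233 (rank 486), and it was 138th of 1355 distal optimal regions. The replicates thus gave nearly the same relative height in the intron, and the vn promoter lay far below it in the pooled list. The protein-coding TSS nearest to the intronic summit was that of mad2, 11152 bp away. The window also took in the promoters of mad2 (height 95.7, relative heights 0.616 and 1.00) and kri (97.96, 1.12 and 0.482), both beyond the 3′ end of vn. With the highest replicate region taken, the kri region was the only one of the 31 whose relative height differed by more than 1 log2 unit between replicates (−1.22, replicate 3 over replicate 1), whereas 95.3% of 3884 optimal regions with a region in both replicates stayed within that limit.

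The receptor gene Egfr (FBgn0003731) was the least marked of the long genes. It lies at 21522420 to 21559977 on the plus strand of 2R and has 2 annotated TSSs. Its window held 30 pooled regions but only 1 optimal one, at 21535401 to 21535800 in an intron, with heights of 66.8 and 49.0 in replicates 1 and 3 and a pooled height of 117 (rank 1804). The relative heights of 0.946 and 1.04 (0.993 ± 0.0659, SD, n = 2) were those of an average optimal region. This summit lay 1194 bp from the TSS of CG30286, a gene nested in Egfr, and 11042 bp from the nearer TSS of Egfr. The Egfr TSSs themselves had low regions, of pooled height 45.5 (139 bp upstream of the first) and 40.9 (79 bp upstream of the second). At the second TSS both replicates listed a region (27.1 and 16.1), and at the first only replicate 1 did (33.9). Per 100 kb the Egfr window held 1.74 optimal regions, the fewest of the 8 and below the 2.91 of all arms.

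Of the inhibitor genes, aos carried the highest region of the 8 genes. It lies at 16470386 to 16483650 on the minus strand of 3L (FBgn0004569), and the region at 16480427 to 16480710 had its summit 3097 bp downstream of the only annotated TSS, in an intron of aos that also lies within an intron of CG33158. The height was 257 in replicate 1 and 178 in replicate 3, with ranks of 117 and 112 in the replicates' own lists. The relative heights were 3.64 and 3.79 (3.71 ± 0.102, SD, n = 2), the pooled height was 433 (rank 115), and it was 28th of 1355 distal optimal regions. Both replicates therefore placed this intronic region among their highest. The second optimal region of aos was much lower, with a pooled height of 102 and relative heights of 0.861 and 0.862, with its summit at 309 bp upstream of the TSS. No pooled region lay within 250 bp of the aos TSS.

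The other inhibitor gene, sty (FBgn0014388), at 3401153 to 3424935 on the minus strand of 3L, had no optimal region inside its span. Its highest, at 3394912 to 3395232, was intergenic, 6113 bp beyond the 3′ end, with heights of 214 and 103 in replicates 1 and 3, relative heights of 3.03 and 2.18 (2.60 ± 0.605, SD, n = 2) and a pooled height of 310 (rank 256). A second one followed at 3396197 to 3396363, 4869 bp beyond the 3′ end, with relative heights of 1.94 and 1.56 and a pooled height of 215. Both stood above a middling optimal region in both replicates, and both were higher in replicate 1. The nearest protein-coding TSS was that of Ids, 16772 bp from the first, so that the choice of sty rests on the window alone, and a non-coding RNA, lncRNA:CR45737, has a TSS 952 bp from that summit. The third region lay 7946 bp upstream of sty in an intron of eIF5B (height 88.2, relative heights 0.715 and 0.860). At the second sty TSS the pooled list had a region of height 59.7 with its summit 6 bp downstream, which replicate 1 listed at 55.2 and replicate 3 not at all.

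The ETS activator gene pnt (FBgn0003118), at 23290231 to 23346167 on the minus strand of 3R, is the longest of the 8 and has 3 TSSs. It had 7 optimal regions, of which 4 were distal and intronic and none was at a pnt TSS. The highest, at 23326413 to 23326603, lay 12193 bp upstream of the second TSS, with heights of 162 and 127 in replicates 1 and 3, relative heights of 2.30 and 2.70 (2.50 ± 0.284, SD, n = 2) and a pooled height of 293 (rank 286). The other distal regions were lower, with pooled heights of 123 (5557 bp upstream of the third TSS), 105 (8191 bp upstream of it) and 93.9 (14659 bp downstream of the first TSS), and their relative heights ranged from 0.654 to 1.16 over both replicates. Thus 1 of the 4 stood clear of the rest in both replicates. A summit 992 bp downstream of the first TSS had a height of 80.6 and relative heights of 0.532 and 0.871, and one 274 bp upstream of the third TSS had a height of 75.4, relative heights of 0.649 and 0.584 and 5 matches to GAGAG within 100 bp. The latter, at rank 3816, was the lowest of the 31. The remaining region was at the promoter of Cdc16, 9054 bp beyond the 3′ end of pnt (height 126, relative heights 1.23 and 0.761). Within 250 bp of the pnt TSSs no pooled region lay, but the replicates' own lists held low ones. Replicate 1 listed 31.9 at the first TSS and 16.0 at the second, and replicate 3 listed 20.3 at the second and 27.5 at the third.

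The ETS repressor gene aop (FBgn0000097), at 2156484 to 2178754 on the minus strand of 2L, had the most optimal regions, 8, and their heights were more even. Its highest, intronic at 2163565 to 2163766 and 2126 bp upstream of the second TSS, had heights of 134 and 62.4 in replicates 1 and 3, relative heights of 1.90 and 1.32 (1.61 ± 0.411, SD, n = 2) and a pooled height of 200 (rank 653). A summit 1475 bp upstream of the first TSS, at 2180229, had a pooled height of 179 and relative heights of 1.48 and 1.64, and one at 4181 bp upstream, in an exon of lncRNA:CR43751 and 973 bp from its TSS, had 168 with 1.42 and 1.68. The second intronic region, also nearest to the second TSS, had a height of 128 and relative heights of 1.05 and 1.12. All 4 distal regions of aop were above 1 in both replicates. The promoters of Tbcd (height 181, relative heights 1.58 and 1.55) and AIF (83.8, 0.870 and 0.469) also lay in the window, beyond the 3′ end.

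At the promoter of aop itself the replicates differed. An optimal region of pooled height 92.1 (rank 2762) had its summit 90 bp downstream of the first TSS, in the 5′ untranslated region. Replicate 3 listed a region of height 60.4 there, 17 bp from the pooled summit. In replicate 1 the nearest region had a height of only 21.7, and the highest within 250 bp had 47.2, at 240 bp downstream of the TSS. Taking the nearest, the relative heights were 0.315 and 1.31, a log2 ratio of 2.06, and taking the highest they were 0.669 and 1.28, a ratio of 0.94. Over all optimal regions, with the highest replicate region taken, the ratio had an SD of 0.48, which the 0.94 exceeded. The SD of ratios taken with the nearest region was not computed, and the size of the difference depended on which replicate region was taken. With the highest region, the ratio of 0.94 stayed within 1 log2 unit, as did 95.3% of optimal regions. Downstream, at 920 bp from the TSS, a region of height 76.8 was likewise higher in replicate 3 (0.491 and 0.917). The highest region that missed the optimal set in any of the windows was also nearest to the aop TSS, with a height of 71.7 at rank 4116.

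**Figure D2:**
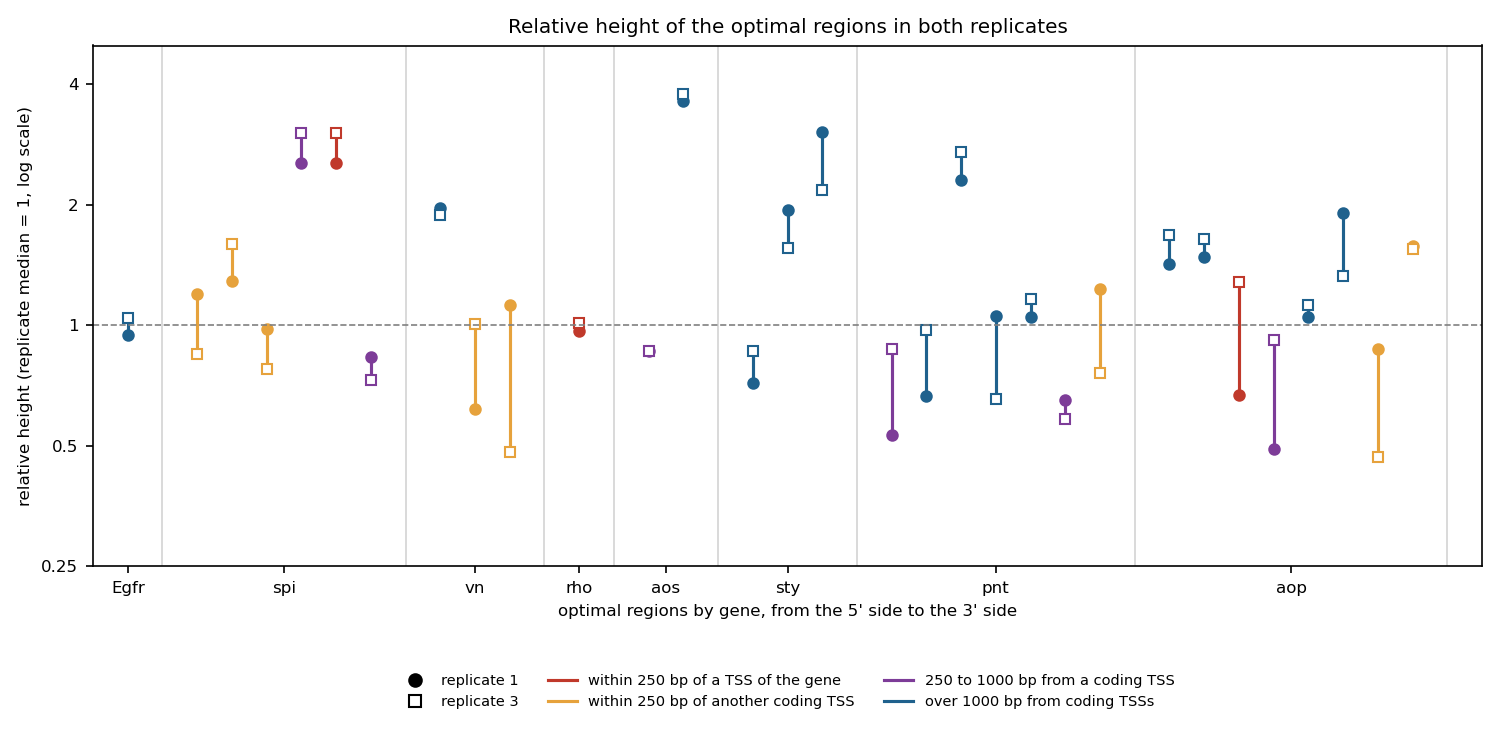
Relative height (log scale, 1 is the replicate's median over the optimal regions) of the 31 optimal regions in replicate 1 (filled circles) and replicate 3 (open squares), grouped by gene and ordered from the 5′ to the 3′ side. The lines join the replicates and carry the colours of the position classes. The aos intron stands highest, at 3.64 and 3.79, and the aop promoter has one of the longer lines, from 0.669 to 1.28.

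Ordered by the mean relative height of the highest region that was not at another gene's TSS, the genes ran aos, spi, sty, pnt, vn, aop, Egfr and rho. The ranges of the 2 replicates did not overlap between aos and spi, between pnt and vn, or between aop and Egfr. They overlapped between spi and sty, sty and pnt, vn and aop, and Egfr and rho, and these neighbours cannot be put in order. In 6 genes, namely aos, sty, pnt, vn, aop and Egfr, this highest region was distal, and in spi and rho it was at a TSS of the gene. How often the highest region is distal among all genes was not counted.

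Over the 31 regions, 18 were higher in replicate 3 and 13 in replicate 1 by relative height. The median absolute log2 ratio between replicates was 0.27, against 0.28 over all optimal regions, so that the replicates differed at these genes about as much as elsewhere. Among the 3897 highest regions of their own list were 27 of the 31 in replicate 1 and 28 in replicate 3, against 3479 and 3309 of all 3897 optimal regions. The nearest and the highest replicate region within 250 bp were different regions for 2 of the 31 in replicate 1 and for 1 in replicate 3, as they were for 145 and 144 of all optimal regions.

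**Figure D3:**
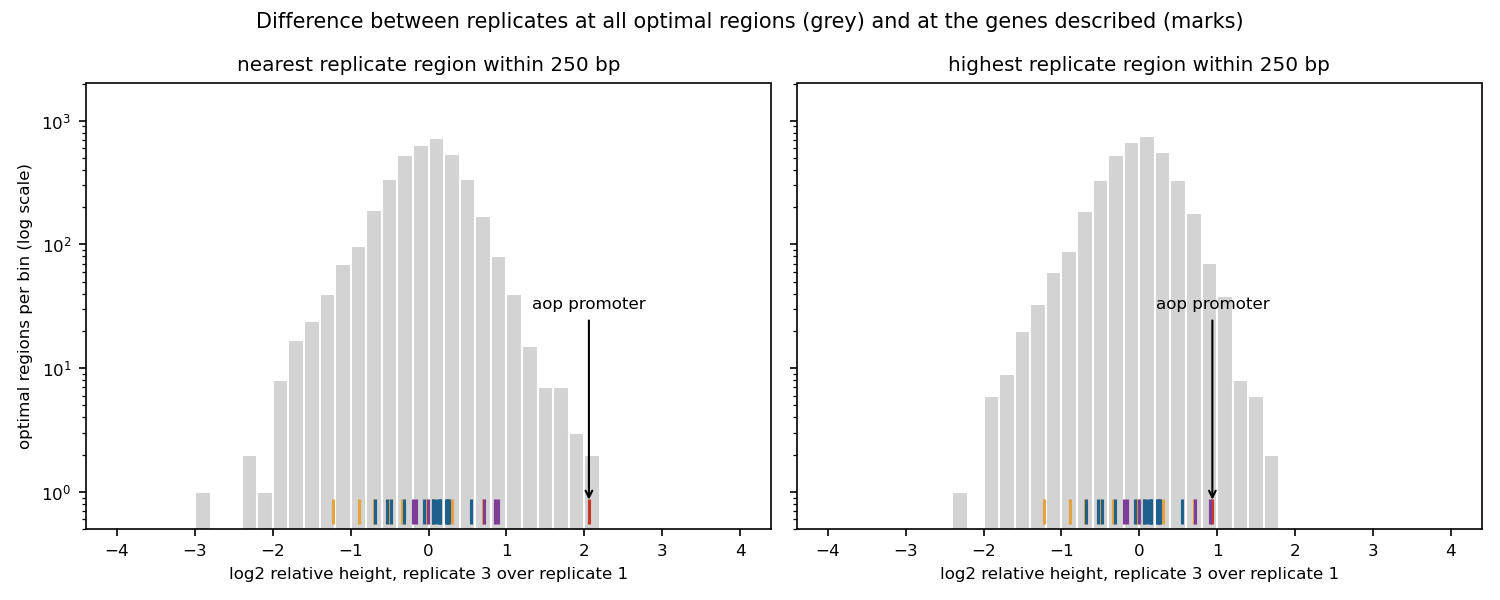
Number of optimal regions (log scale) by log2 ratio of relative height, replicate 3 over replicate 1, for all optimal regions (grey) and for the 31 regions at the 8 genes (marks, in the colours of the position classes). The left panel takes the nearest replicate region within 250 bp and the right panel the highest. The aop promoter moves from 2.06 to 0.94, and most other marks keep their place.

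The letters of the DNA were then compared with those of all promoters and regions, as a description. At the 15 TSSs of the 8 genes, GAGAG occurred on either strand between 250 bp before and 50 bp after the start in 13 (86.7%), against 33.1% of 19253 protein-coding TSSs. The 2 TSSs without it were the bound one of spi and the first one of sty. An exact initiator, TCAGT with its A within 10 bp of the TSS, was present at 6 of the 15 (40%, against 14.2%), which were the second Egfr TSS, rho, aos, the first sty TSS and the first and second pnt TSSs. Of these 6, the rho TSS was bound. The other bound TSSs among the 15 were the second of spi and the first of aop. The share of bound TSSs among all TSSs with an initiator was not counted. The downstream promoter element, at 28 counted from the initiator A, was matched at 1 TSS, the second of Egfr (all TSSs, 3.34%), and the TATA box at rho, starting at −25 (all TSSs, 6.87%). TATCGATA, CAGGTAG and CCGGAA were found in none of the 15 promoter windows, and in 7.98%, 1.69% and 6.79% of all. Absence of a match says only that these letters were not in this window.

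Within 100 bp of the summits, the 31 regions differed less from the genome-wide shares. GAGAG was found in 9 (29.0%, against 25.2% of all optimal regions) and TATAAA in 12 (38.7%, against 28.2%). In the 14 distal regions GAGAG was found in 6, against 27.5% of 1355, and TATAAA in 7, against 30.3%. The capitals above mark both words in the aos intron and in the highest pnt intron, and both were also found in other regions, the rho promoter and the pnt intron 8191 bp upstream of the third TSS among them. TATCGATA was found in 1 region, at the promoter of mad2 (3.23%, against 5.67% of all optimal regions), and CCGGAA in 1, at the promoter of CG10366 (3.23%, against 4.90%). The median GC content was 37.8% in these windows and 37.8% over all optimal regions, and 35.1% against 36.3% in distal ones.

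Other genes of the pathway, 32 in a list ordered by role, were looked at in the same way. A TSS was bound in 11 of the 32 (34.4%), against the 17.6% of all genes and the 23.9% of genes of at least 5134 bp given above. Of 7 genes for ligands and their processing, Krn, a further ligand (height 94.7, a region shared with the TSS of Ndfip, relative heights 0.666 and 1.14), and S (Star), which exports the Spi precursor from the endoplasmic reticulum (126, 1.37 and 0.713), were bound. Of 11 transduction genes, 5 were bound, led by the adaptor gene Shc with a height of 599 (rank 52) and relative heights of 4.94 and 5.35 (5.15 ± 0.291, SD, n = 2). The others were Ras85D (168, a region shared with the TSS of Rlb1), dos (117), csw (106) and cnk (76.6). Of 5 inhibitor genes, Cbl, a ubiquitin ligase gene, was bound (87.9). Of 9 nuclear and ETS genes, edl, whose product binds Pnt and Yan (158), the ETS gene Ets97D (97.9) and ttk, which encodes a repressor (84.1), were bound.

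Distal optimal summits inside the gene were found in 5 of the 32 genes (15.6%), against the 4.01% of all genes and the 15.3% of genes of at least 5134 bp given above. The 15.6% was thus close to the share of the longer genes, although the 32 include shorter ones, such as Shc (1662 bp). Raf, a kinase gene of 48405 bp, had 8, with heights from 75.1 to 495, and its TSSs were not bound. S had 4, up to a height of 362, cic had 3, edl 2 and ru 1. Raf, cic and ru had distal summits inside the gene and no bound TSS, as did aos, vn, Egfr and pnt, whereas S and edl had both, as aop did.

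The limits of the rule were as follows. The lowest optimal region in the windows had a height of 75.4 and the highest region left out of the optimal set 71.7. Just outside the 10 kb limit lay optimal regions at 10417 bp from aop (nearest TSS CG10874, height 192), 10502 bp from rho, 11395 bp from Egfr (twz, 90.8), 11468 bp from vn (117) and 11674 bp from sty (Ids, 79.4), whereas the first ones beyond the limit of pnt, spi and aos lay at 31879, 34488 and 50454 bp. Just outside the 250 bp limit at TSSs lay the summits of pnt at 274 bp, spi at 296 bp and aos at 309 bp. With a limit of 500 bp, 5 of the 8 genes had a bound TSS, with aos and pnt added, against 20.7% of all genes. Regions in DNA that is open in many cells, and the level of the input control, were not compared here, and their part in these heights was not tested.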

How the data were processed

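Anti-GFP ChIP-seq was done by the authors on 2 biological replicates of 0 to 24 h embryos. Per the labels, the builds are dm6 and dm3. No source used here names the read aligner or the program that called regions (not given in the sources used). The deposited lists give each region a signal value (its height), a −log10 of the q value and a summit offset in bp, the last of which is deposited as another kind of value. Lists were made by the authors for each replicate and for the pooled replicates, background included, and an optimal set was chosen by irreproducible discovery rate. The −log10 q was at its ceiling of 4.079 for all optimal regions and ranked none. Read totals are unknown, and the control alignment and dm3 lists were not used here.

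The dm6 lists were set against Ensembl release 115 (BDGP6), and all 8 genes had the same span in RefSeq. Coordinates are 1-based. TSSs are those of protein-coding transcripts, and a distal summit lay over 1000 bp from all of them. Motifs were exact matches, TATA starting from −40 to −20. Sequences were read from the Release 6 genome. Python 3.11.15, numpy 2.4.6, pandas 2.3.3 and matplotlib 3.10.9 were used, and all 9 checks on simulated data were passed. Values are mean ± SD over 2 replicates, without tests. The genes and lists were chosen with earlier results of these data known. The text names the 8 genes, every optimal region in their windows with its nearest TSS, and pathway genes with a bound TSS. Pathway genes with distal summits inside them, and the regions just outside the limits, were named after their values were seen. Alternatives were other distances, windows, heights, divisors, mismatches, ways of matching replicates, and each replicate alone. The comparison with genes at least as long as the shortest of the 8 and the share at 500 bp were added after the data were seen. The letters of 1 region of aop are not reported here.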

Additional observations from a re-analysis of the deposited data

How the results depend on the processing

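No paired analysis was possible because there is 1 group with 2 replicates and no comparison between groups. The number of genes with a bound TSS, 3, became 2 within 100 bp (rho and aop), where spi was lost, 5 within 500 bp (spi, rho, aop, aos and pnt), 6 when any pooled region counted and 1 (spi) when only the highest 50% of the optimal regions did. The number of optimal regions, 31, became 17 with the highest 50% and 16 with summits inside the genes alone, where distal regions fell from 14 to 9 and pooled regions from 191 to 121. Distal regions numbered 16 beyond 500 bp and 12 beyond 2000 bp, where the Egfr region and the aop region at 1475 bp were lost. With TSSs of all annotated genes they were also 12, without the highest sty region and the aop region 973 bp from a non-coding TSS. With a replicate alone, taking its 3897 highest regions, bound genes ranged from 3 to 4 (sty was added without replicate 3), regions from 32 to 35 and distal regions from 14 to 20, and all 8 genes kept a region. The median relative height, 0.995, became 3.55 when heights were divided by the median of the whole list, because the divisor is then the height of a background region. With 1 mismatch allowed, TATA matches rose from 1 to 2, initiators from 6 to 11 and downstream elements from 1 to 3 of the 15 TSSs. These are 13.3%, 73.3% and 20%, against 22.5%, 48.7% and 7.58% of all protein-coding TSSs with 1 mismatch. Of the 31 log2 ratios between replicates, 2 moved by more than 0.48 with the nearest region or with the highest within 100 bp, those of the aop promoter and the second spi region. With 2 replicates, the SD of a relative height is poorly known.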
